A study of Arabidopsis thaliana with 75 samples.

Results

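Class III peroxidases are secreted, heme-containing plant enzymes of the cell wall. They use hydrogen peroxide to cross-link wall proteins such as extensins and phenolic compounds such as lignin precursors, which stiffens the wall, and they can also produce reactive oxygen species that loosen it. In the root epidermis, several members of the family are known for expression in root hairs, the long tubular outgrowths of hair cells, and extensin cross-linking is part of how the hair wall is built. A list of 60 Arabidopsis loci annotated as class III peroxidases was matched by locus identifier to the array table, and 49 of them were among the 21440 genes measured. The 11 loci without a value were AT1G05240, AT1G05250, AT2G18140, AT2G18150, AT2G38380, AT2G38390, AT3G32980, AT3G49110 (PRXCA), AT3G49120 (PRXCB), AT4G37520 and AT4G37530, and nothing below applies to them. The measured loci lie on chromosomes 1 to 5, with 9, 8, 6, 9 and 17 of them, in that order.

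RNA from Arabidopsis root epidermis cells was hybridised to Affymetrix ATH1 arrays, with 3 biological replicates of each of 25 groups. The cells came from root tips of 5-day-old seedlings and were sorted for green fluorescence from WER::GFP, a reporter that all lines and the wild type carried. By the study's methods the reporter is active in both epidermal cell types, more strongly in non-hair cells, and in the lateral root cap, and each replicate pooled the roots of many seedlings. At Michigan 21 groups (63 arrays) were measured, and at Duke 4 groups (12 arrays).

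Among the lines with most epidermal cells in the hair fate, called hairy lines here, were wer myb23 (wer-1 myb23-1), gl3 egl3 (gl3-1 egl3-1) and ttg (ttg1-13), which lack parts of the transcription factor complex that specifies non-hair cells. They were set against cpc try (cpc-1 try-82), a nearly hairless line that lacks a pair of small MYB proteins needed for the hair fate, and these 4 lines were measured at both facilities. The remaining groups were measured at Michigan alone. The lines gl2 (gl2-1), which lacks a homeodomain protein of non-hair cells, and rhd6 (rhd6-1), which lacks a bHLH protein needed to start hair growth, were set against both cpc try and the wild type. The lines myc1 (myc1-1), bhlh66 (bhlh66-1), cobl9 (cobl9-1), cow1 (cow1-3), csld3 (csld3-1), ire (ire1-2), lrx1 (lrx1-4), mrh1 (mrh1-1), mrh2 (mrh2-1), mrh3 (mrh3-3) and rhd2 (rhd2-1) were set against the wild type (Columbia). Seedlings of rhd6 were also transferred to medium with the ethylene precursor ACC, with the auxin IAA, or with neither (MS).

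All values are log2 signals, so that a difference of 1 is 2-fold, and errors of differences are standard errors (SE) from limma. The medians of the arrays ran from 6.02 to 6.14 for Duke and from 6.495 to 6.86 for Michigan, so the facilities were fitted apart, and precision was limited by 3 arrays per group. Of 5 hair cell markers (RHD6, COBL9, EXPA7, PRP3, LRX1), all were lower in cpc try at Michigan (means of 5.07 to 5.71) than in the wild type (9.59 to 11.38). All 3 non-hair markers fell in the hairy lines relative to cpc try at each facility, and none of the 3 lateral root cap markers passed that test, although these were high in the wild type (9.08 to 10.65). In gl2 against cpc try 1 of the 3 lateral root cap markers was higher. Against the wild type none of them was called, with list medians from -1.11 in bhlh66 to 0.395 in rhd6. RHD6 itself averaged 5.92 in rhd6, against 9.59 in the wild type, and GL2 averaged 7.71 in gl2, against 8.31 in the wild type. In sorted bulk cells, fewer cells of a type and less RNA per cell cannot be told apart. P-values set a difference against the spread between arrays within groups, pooled over all groups of the fit.

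In the wild type, 10 of the 49 peroxidases (20.4%) lay at or above the 95th percentile of all genes (10.83), while 14 lay below the lower quartile (4.06) and another 14 between it and the median (6.79). The brightest were AT5G17820 (12.57, the 99.9th percentile), AT3G01190 (12.34), AT4G30170 (12.23), AT5G64100 (11.86) and AT4G26010 (11.79). These levels rest on different probe sets, so they place each gene among all genes and do not rank the enzymes by transcript number. Over the 21 Michigan groups, the difference between the highest and the lowest group mean had a median of 1.55 over the peroxidases, beside 1.13 over all genes.

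Members with high wild-type signals differed in how much they varied. AT5G17820, AT3G01190, AT4G30170, AT5G64100 and PRXR1 (AT4G21960) spanned only 0.80 to 1.11 over the Michigan group means. AT2G37130 spanned 1.43 and AT4G26010 2.79. By contrast AT1G34510 spanned 6.37, AT3G49960 6.15, RHS18 (AT5G22410) 5.87, RHS19 (AT5G67400) 5.85 and AT1G30870 5.58, and each of these 5 had its lowest mean in cpc try. The next widest were PER4 (AT1G14540) at 3.86, its chromosomal neighbour AT1G14550 at 3.80 and AT5G15180 at 3.56, which had their lowest means in gl2 and their highest in rhd6 on IAA medium.

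**Figure D1:**
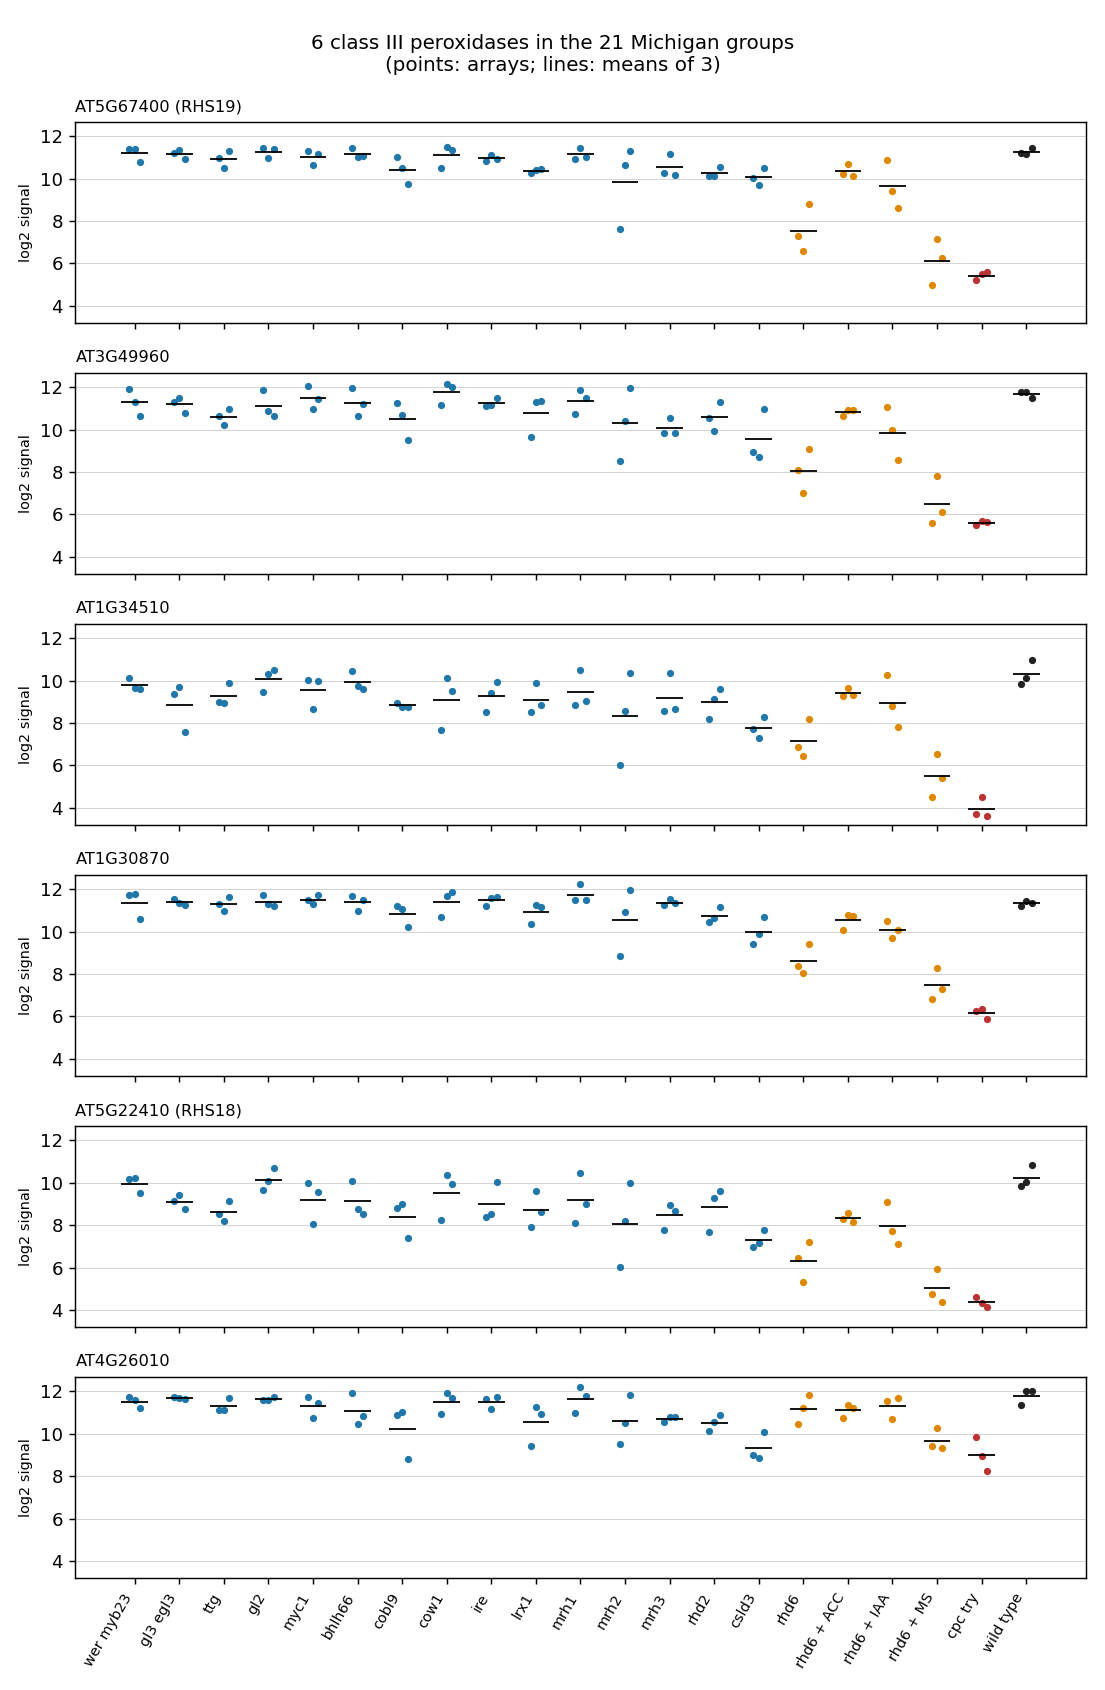
Log2 signal of 6 class III peroxidases (panels) in the 21 Michigan groups (horizontal axis), with points for arrays and lines for means of 3. In all 6 panels cpc try has the lowest mean, and in the upper 5 it is followed by rhd6 on MS medium (5.02 to 7.46) and rhd6 (6.33 to 8.62).

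The first question was which peroxidases differ between the hairy lines and the hairless line. At Michigan, the mean of the hairy lines exceeded cpc try for 6 of 49 at 1% FDR (limma), where 4.41% of all genes were higher, and 2 were lower, where 2.75% of all genes were lower. At Duke, 5 were higher, with 1.66% of all genes, and 2 were lower, with 1.8% of all genes. The 5 higher at Duke were among the 6 of Michigan, and 1.03% of all genes were higher at both facilities. No peroxidase was lower at both, beside 0.653% of all genes. The median difference over the 49 was -0.17 at Michigan, beside -0.03 over all genes, and -0.01 at Duke, beside 0.03.

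RHS19 (AT5G67400), also known as PRX73 and implicated in root hair growth, had the largest Michigan difference of the family. Its Michigan signals were 11.41, 11.41 and 10.79 in wer myb23, 11.20, 11.33 and 10.90 in gl3 egl3, and 10.97, 10.51 and 11.28 in ttg, against 5.20, 5.49 and 5.58 in cpc try. At Duke they were 10.23, 8.41 and 9.73 in wer myb23, 13.00, 12.61 and 10.84 in gl3 egl3, and 10.79, 10.76 and 11.43 in ttg, against 5.59, 5.26 and 5.28 in cpc try. Every hairy array lay above every cpc try array at both facilities. RHS19 was 50.6-fold higher at Michigan (log2 5.66 ± 0.44 SE, adjusted p = 4.95e-14) and 44.9-fold higher at Duke (5.49 ± 0.46, adjusted p = 0.000121).

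AT3G49960 followed the same pattern. At Michigan it gave 11.94, 11.31 and 10.64 in wer myb23, 11.32, 11.48 and 10.78 in gl3 egl3, and 10.65, 10.22 and 10.97 in ttg, against 5.49, 5.71 and 5.65 in cpc try. The Duke signals were 8.96, 7.80 and 9.29 in wer myb23, 11.44, 10.90 and 8.54 in gl3 egl3, and 8.86, 9.12 and 9.83 in ttg, against 4.73, 4.87 and 4.67 in cpc try. The groups did not overlap at either facility, and the Duke gl3 egl3 arrays were spread over almost 3 log2 units. The difference was 5.42 ± 0.52 at Michigan (42.7-fold, adjusted p = 2.79e-11) and 4.66 ± 0.53 at Duke (25.3-fold, adjusted p = 0.000611).

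AT1G34510 was close to the lower quartile of all genes in cpc try. Its Michigan values were 10.14, 9.63 and 9.59 in wer myb23, 9.35, 9.70 and 7.57 in gl3 egl3, and 8.99, 8.93 and 9.87 in ttg, against 3.69, 4.52 and 3.61 in cpc try. Its Duke values were 7.501, 6.41 and 7.03 in wer myb23, 11.37, 10.48 and 8.43 in gl3 egl3, and 8.97, 9.04 and 9.53 in ttg, against 4.50, 4.08 and 4.16 in cpc try. No array of the hairy lines fell as low as cpc try, and wer myb23 was the lowest hairy line at Duke. AT1G34510 differed by 5.37 ± 0.58 at Michigan (41.3-fold, adjusted p = 7.05e-10) and by 4.51 ± 0.49 at Duke (22.7-fold, adjusted p = 0.000449).

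AT1G30870, a member without a symbol of its own, showed the smallest SE of the 5. It measured 11.74, 11.76 and 10.62 in wer myb23, 11.52, 11.35 and 11.28 in gl3 egl3, and 11.33, 10.96 and 11.63 in ttg at Michigan, against 6.26, 6.33 and 5.90 in cpc try. At Duke it measured 11.28, 9.56 and 11.66 in wer myb23, 12.65, 12.41 and 10.999 in gl3 egl3, and 11.05, 10.97 and 11.52 in ttg, against 6.02, 5.38 and 5.62 in cpc try. Again the groups were apart at both facilities. The differences were 5.19 ± 0.36 at Michigan (36.4-fold, adjusted p = 2.11e-15) and 5.67 ± 0.44 at Duke (50.9-fold, adjusted p = 7.71e-05).

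RHS18 (AT5G22410) carries the same name as RHS19, for root hair specific, and it too was low in cpc try. Its Michigan signals were 10.15, 10.20 and 9.51 in wer myb23, 9.15, 9.40 and 8.75 in gl3 egl3, and 8.51, 8.18 and 9.15 in ttg, against 4.62, 4.33 and 4.14 in cpc try. The Duke arrays gave 8.30, 7.32 and 8.39 in wer myb23, 11.10, 10.32 and 7.88 in gl3 egl3, and 8.94, 8.99 and 9.57 in ttg, against 4.55, 4.46 and 4.41 in cpc try. The groups did not overlap. RHS18 was 29.0-fold higher at Michigan (4.86 ± 0.56, adjusted p = 5.09e-09) and 22.7-fold higher at Duke (4.51 ± 0.54, adjusted p = 0.000802).

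AT4G26010 (PRX44), another peroxidase implicated in root hair growth, was called at Michigan alone. It gave 11.74, 11.59 and 11.21 in wer myb23, 11.74, 11.70 and 11.62 in gl3 egl3, and 11.11, 11.11 and 11.68 in ttg at Michigan, against 9.83, 8.94 and 8.23 in cpc try. The Duke values were 11.20, 8.23 and 10.53 in wer myb23, 12.54, 12.13 and 10.71 in gl3 egl3, and 10.24, 10.16 and 10.69 in ttg, against 9.59, 8.93 and 9.62 in cpc try. Its cpc try arrays stayed above the array medians of their facility, and at Duke replicate 2 of wer myb23 lay below all cpc try arrays. The difference was 2.50 ± 0.40 at Michigan (5.66-fold, adjusted p = 7.94e-06) and 1.34 ± 0.56 at Duke (adjusted p = 0.191).

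The difference between the facilities in this comparison was tested in 1 fit over 24 arrays. For RHS19, AT3G49960, AT1G34510, AT1G30870 and RHS18 it lay between -0.48 and 0.86 with adjusted p-values from 0.594 to 0.931 (limma), so none was shown to differ. AT4G36430 alone passed 1% FDR there (-1.82 ± 0.37, adjusted p = 0.0097), where 0.527% of all genes passed in its direction. That call was lost with a replicate block, quantile normalization, a median shift or dim genes left out, and without 22 of the 24 single arrays. Each hairy line was also set against cpc try on its own, a comparison added after the values were seen. At Michigan all 3 lines called all 6 of the higher peroxidases, among 4.1% of all genes higher in wer myb23, 3.08% in gl3 egl3 and 2.48% in ttg. At Duke ttg called the 5 above, where 1.49% of all genes were higher. The gl3 egl3 line called 10, with the 5 above among them, where 8.3% of all genes were higher. The wer myb23 line called 4, among 1.67% of all genes, and AT1G34510 was 2.74 ± 0.60 higher there without passing (adjusted p = 0.0201). Lower at Michigan were AT4G11290 and AT4G36430 in wer myb23 (2.84% of all genes lower). In ttg there AT2G39040, AT4G36430 and AT5G15180 were lower (1.66%), and gl3 egl3 had none (1.25%). Lower at Duke was AT1G05260 in wer myb23 (1.41% of all genes), AT1G05260 and AT4G11290 in ttg (1.22%), and 7 in gl3 egl3 (8.82%).

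**Figure D2:**
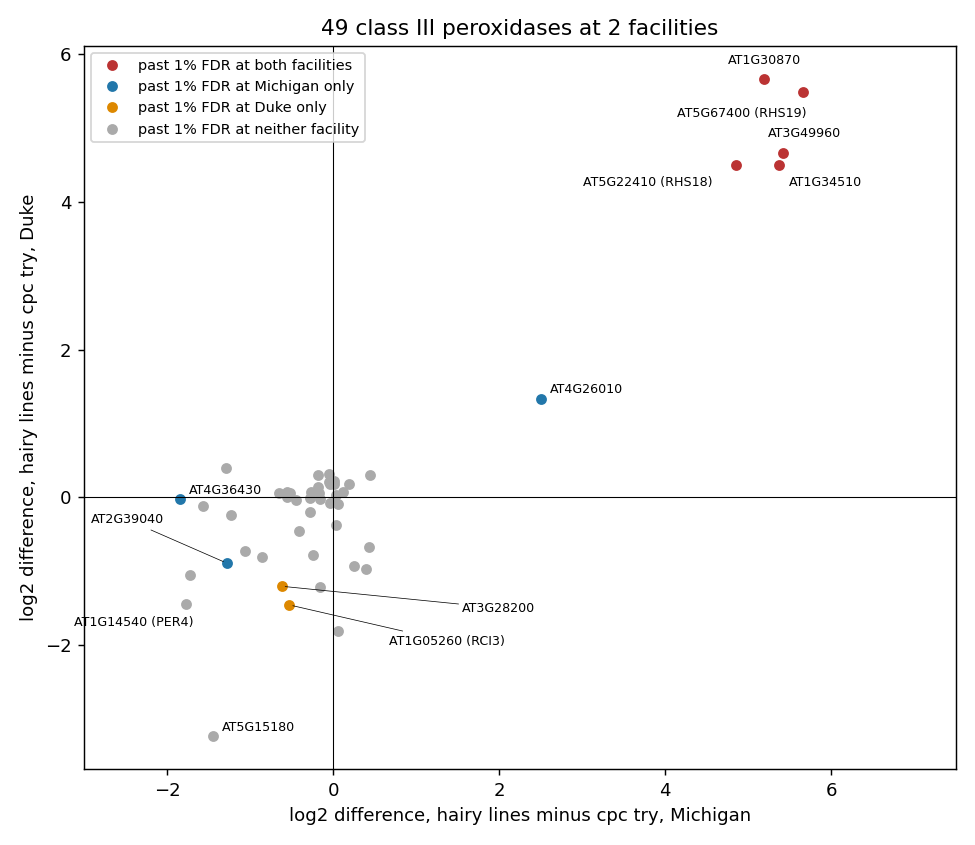
Log2 difference of 49 class III peroxidases between the hairy lines and cpc try at Michigan (horizontal axis) and Duke (vertical axis), with each point a gene coloured by the facilities at which it passed 1% FDR. The 5 points past the threshold at both lie at the upper right (4.86 to 5.66 at Michigan, 4.51 to 5.67 at Duke), apart from AT4G26010 (2.50 and 1.34) and the rest.

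On the other side, no peroxidase was lower in the hairy lines at both facilities. At Michigan AT2G39040 was lower by limma (-1.28 ± 0.28, adjusted p = 0.000707), with 9.59, 10.44 and 9.75 in wer myb23, 8.61, 10.84 and 9.82 in gl3 egl3, and 9.40, 9.55 and 8.62 in ttg, against 11.31, 10.91 and 10.50 in cpc try. Only the gl3 egl3 replicate 2 array reached into the range of cpc try. AT4G36430 was dim in the hairy lines, with 4.50, 4.28 and 4.14 in wer myb23, 4.50, 5.40 and 4.30 in gl3 egl3, and 4.25, 3.78 and 4.27 in ttg, against 6.78, 5.15 and 6.74 in cpc try (-1.84 ± 0.41, adjusted p = 0.00101). The groups overlapped by 1 array of each. At Duke AT4G36430 lay between 3.86 and 4.17 on all 12 arrays. Neither gene passed 1% without replicate 1 of cpc try (highest adjusted p over single arrays left out 0.0207 for AT2G39040), nor AT4G36430 without replicate 3 of cpc try (highest 0.0298).

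At Duke the lower peroxidases were RCI3 (AT1G05260), known from responses to cold and potassium deficiency, and AT3G28200. RCI3 gave 5.06, 5.04 and 5.31 in wer myb23, 5.67, 5.25 and 5.38 in gl3 egl3, and 5.08, 5.07 and 4.59 in ttg, against 6.44, 6.38 and 7.03 in cpc try (-1.46 ± 0.17, adjusted p = 0.000591). These groups did not overlap. AT3G28200 gave 9.52, 8.38 and 8.35 in wer myb23, 7.32, 7.59 and 7.31 in gl3 egl3, and 8.43, 8.39 and 8.54 in ttg, against 9.16, 9.54 and 9.53 in cpc try (-1.21 ± 0.22, adjusted p = 0.00817). The gl3 egl3 line was lowest, replicate 1 of wer myb23 lay among the cpc try arrays, and without gl3 egl3 the difference was -0.81 (adjusted p = 0.064). Leaving out any single array ended this call for 10 of 12 arrays, all but replicates 1 and 2 of wer myb23 (highest adjusted p = 0.0554).

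AT5G15180 had the largest deficit of the family at Duke without passing 1% FDR. Its Duke signals were 7.55, 4.24 and 8.20 in wer myb23, 6.34, 5.92 and 4.80 in gl3 egl3, and 5.00, 4.86 and 6.16 in ttg, against 9.20, 8.98 and 9.24 in cpc try (-3.24 ± 0.70, adjusted p = 0.0181 by limma). All hairy arrays lay below cpc try there. At Michigan the groups overlapped, with 8.87, 10.91 and 7.71 in wer myb23, 8.01, 9.20 and 8.51 in gl3 egl3, and 8.09, 8.43 and 6.39 in ttg, against 10.78, 10.17 and 8.78 in cpc try. The Michigan difference was -1.45, and of the hairy lines only ttg passed 1% FDR there on its own. PER4 (-1.77 at Michigan and -1.45 at Duke) and AT4G11290 (-1.73 and -1.06) were also lower at both on average, called at neither. With the replicate number as a block AT4G11290 was called lower at Michigan. Other uncalled members went the other way at both, such as AT2G18980 (0.44 and 0.30). Replicate 2 of Duke wer myb23 was low for several peroxidases, and without it 12 members passed at Duke, 5 higher and 7 lower, while the shares of all genes became 3.27% higher and 3.67% lower.

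The Duke gl3 egl3 line stood apart from the other hairy lines over much of the array, with 14.5% of all genes lower and 15.3% higher than in wer myb23 and ttg. The peroxidases were called at shares near these, 6 lower (12.2%) and 10 higher (20.4%), so the values that follow are no result about the family. The comparison was chosen after the values were seen. AT3G01190 measured 8.93, 8.99 and 7.32 in Duke gl3 egl3, against 12.88, 11.41 and 12.93 in wer myb23 and 10.72, 10.95 and 11.19 in ttg. AT2G37130 measured 7.14, 7.55 and 6.65 in gl3 egl3, against 11.23, 9.41 and 11.72 in wer myb23 and 10.44, 10.47 and 10.88 in ttg. AT4G30170 measured 9.32, 8.77 and 8.96 in gl3 egl3, against 12.66, 11.22 and 12.63 in wer myb23 and 10.96, 10.93 and 11.15 in ttg. For all 3 genes the gl3 egl3 arrays lay below every array of the other hairy lines. The differences by limma were -3.27 ± 0.41 for AT3G01190 (adjusted p = 0.000243), -3.58 ± 0.45 for AT2G37130 (adjusted p = 0.000234) and -2.58 ± 0.31 for AT4G30170 (adjusted p = 0.000188).

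Of the higher ones AT1G71695 differed by 2.01 ± 0.17 (adjusted p = 3.5e-05). The corresponding Michigan comparison called none of the 49 by limma, where 0.219% of all genes were called. It had 1 peroxidase at an unadjusted p under 0.05, beside 1260 of all 21440 genes. Of the marker lists in the Duke comparison, 2 of 5 hair cell markers were higher and 1 (RHD6) lower, with a median difference of 1.03, 2 of 3 non-hair markers were lower, 2 of 3 xylem markers were higher, and none of the cortex, endodermis, stele and lateral root cap markers passed. Of 11 extensins 7 were higher. The part of these in the peroxidase values was not tested. Without the gl3 egl3 line, the hairy lines still had RHS19, AT3G49960, AT1G34510, AT1G30870 and RHS18 higher than cpc try at Duke, by 3.84 to 5.33, with 7 peroxidases called, among 3.12% of all genes, and 9 at Michigan, among 6.55%.

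**Figure D3:**
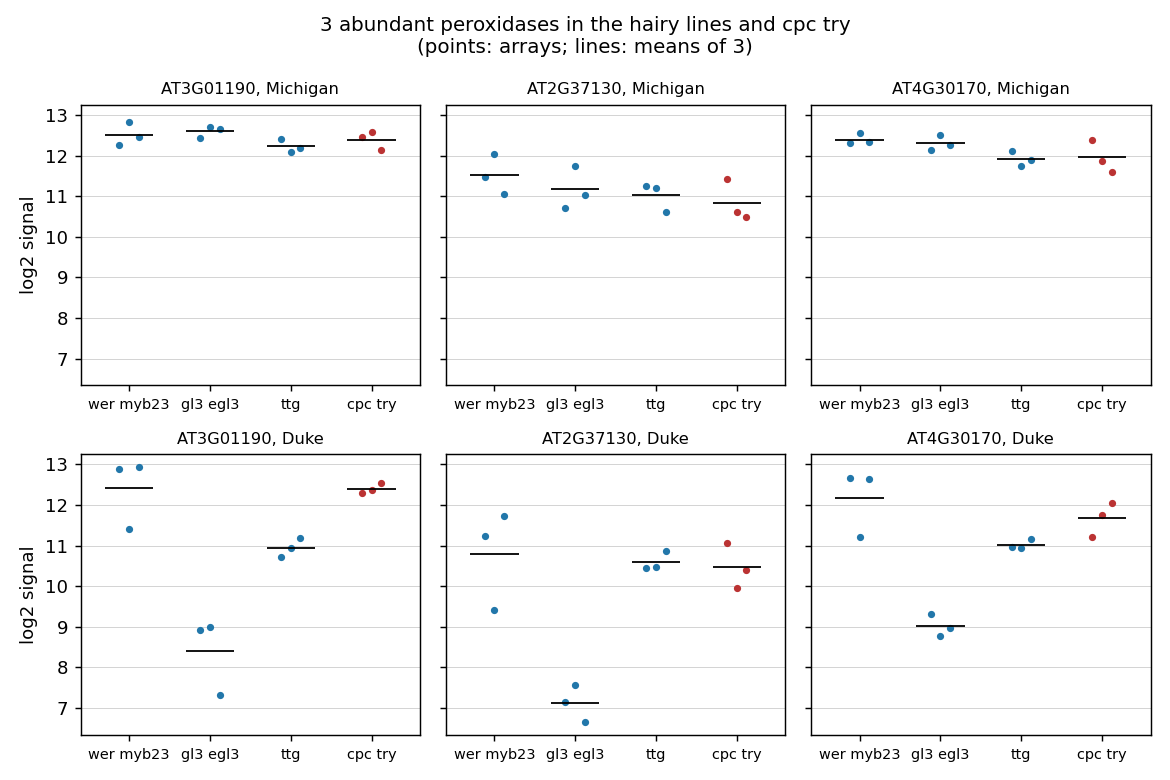
Log2 signal of AT3G01190, AT2G37130 and AT4G30170 (columns) in the hairy lines and cpc try at Michigan (upper) and Duke (lower), with points for arrays and lines for means of 3. The Duke gl3 egl3 arrays (6.65 to 9.32) lie below all other Duke arrays of the same gene.

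Against the wild type, the nearly hairless cpc try had 6 peroxidases lower at 2-fold and 5% FDR, where 2.93% of all genes were lower, and 1 higher, where 1.21% were higher. This comparison shares its cpc try arrays with the one above, and all comparisons with the wild type share its 3 arrays. In wild-type arrays RHS19 gave 11.21, 11.14 and 11.46, AT3G49960 11.76, 11.79 and 11.48, AT1G34510 9.84, 10.14 and 10.95, AT1G30870 11.22, 11.45 and 11.36, RHS18 9.83, 10.03 and 10.83, and AT4G26010 11.36, 12.02 and 12.002. Every one of these values was above the cpc try arrays of the same gene. By limma AT1G34510 was 82.7-fold lower in cpc try (adjusted p = 3.45e-09), AT3G49960 66.6-fold (7.63e-10), RHS18 58.4-fold (1.4e-08), RHS19 57.4-fold (2.3e-11), AT1G30870 36.3-fold (3.94e-12) and AT4G26010 6.93-fold (7.65e-05). AT4G36430 went the other way, with 4.05, 3.57 and 4.86 in the wild type, and was 2.06 ± 0.50 higher in cpc try without overlap (adjusted p = 0.00534), a call lost without replicate 3 of cpc try or replicate 2 of the wild type (highest adjusted p = 0.0673).

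The rhd6 line, which starts few hairs, was intermediate. RHS19 measured 7.29, 6.57 and 8.78 in rhd6, AT3G49960 8.12, 6.999 and 9.10, AT1G34510 6.86, 6.44 and 8.18, AT1G30870 8.39, 8.05 and 9.43, and RHS18 6.43, 5.33 and 7.22. For all 5 the replicate 3 array was the highest of rhd6 and still lay below every wild-type array. By limma they were 6.60-fold (AT1G30870, adjusted p = 5.29e-05), 8.87-fold (AT1G34510, 0.00447), 12.2-fold (AT3G49960, 0.000161), 13.2-fold (RHS19, 6.05e-06) and 15.0-fold (RHS18, 0.000169) lower than in the wild type, where 1.43% of all genes were lower. AT4G26010 measured 10.47, 11.23 and 11.83 in rhd6 (-0.62 ± 0.49, adjusted p = 0.886). AT1G34510 was not called without replicate 2 of rhd6 (adjusted p = 0.0645).

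Same-numbered arrays of rhd6 and the wild type deviated together, and with the replicate number as a block in a fit of these groups 8 members were called. The 7 lower were the 5 above with AT1G44970 (PRX9, known from the anther tapetum) and AT5G64120 (PRX71), and the 1 higher was AT5G15180. In that fit 2.24% of all genes were lower and 1.77% higher. The arrays of these groups also carry different label forms in the sample descriptions (numbers, S or x). Within the S arrays the differences of AT1G30870, AT1G34510, AT3G49960, RHS18 and RHS19 ran from -3.23 to -4.23, and between the x arrays from -1.93 to -3.61.

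Set against cpc try, rhd6 had 5 higher peroxidases at 2-fold and 2% FDR, where 1.59% of all genes were higher. They were AT1G34510 (3.22, adjusted p = 0.00258), AT1G30870 (2.46, 0.000215), AT3G49960 (2.45, 0.0131), AT4G26010 (2.18, 0.00379) and RHS19 (2.12, 0.0115), while RHS18 (1.96, adjusted p = 0.09) did not pass. No rhd6 array shares a label form with cpc try. With the label form as a factor only AT1G30870 was called (0.872% of all genes), a fit of these groups alone called none, and the count fell to 3, 2 and 1 without replicates 1, 2 and 3 of cpc try and to 1 without replicate 3 of rhd6.

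The gl2 line makes hairs in non-hair positions, and the missing factor acts downstream of the fate decision. Its arrays gave 11.45, 10.98 and 11.39 for RHS19, 11.88, 10.88 and 10.63 for AT3G49960, 9.45, 10.29 and 10.51 for AT1G34510, 11.71, 11.31 and 11.18 for AT1G30870, 9.65, 10.06 and 10.68 for RHS18, and 11.61, 11.61 and 11.75 for AT4G26010. All 6 were higher in gl2 than in cpc try at 2-fold and 5% FDR, by 5.85, 5.51, 6.14, 5.24, 5.77 and 2.66 in that order, where 3.53% of all genes were higher. Against the wild type none of the 49 passed in gl2 by limma, where 0.215% of all genes were called. At an unadjusted p under 0.05 there were 8 peroxidases, beside 660 of all 21440 genes.

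In gl2, 5 peroxidases were lower than in cpc try, where 2.34% of all genes were lower. AT5G15180 gave 7.46, 5.67 and 6.44 in gl2, against 10.78, 10.17 and 8.78 in cpc try, and fell by 3.39 ± 0.55 (adjusted p = 1.27e-05). PER4 gave 5.45, 5.39 and 5.30 in gl2, against 9.57, 7.11 and 7.94 in cpc try (-2.83 ± 0.90, adjusted p = 0.0402). For neither gene did the groups overlap. The others were AT4G36430 (-1.83, adjusted p = 0.0137), AT4G16270 (PRX40, known from the tapetum; -1.12, 0.0101) and AT3G28200 (-1.003, 0.0478). With the array label form as a factor (4.75% of all genes called), or without replicate 1 of cpc try, 7 members were called, and by the label factor AT5G15180 was the only lower one. Of single arrays left out, 5 of 6 ended the call of PER4 (highest adjusted p = 0.182) and 5 of 6 that of AT3G28200 (0.172), 3 that of AT4G36430 (0.109), 2 that of AT4G16270 (0.152) and none that of AT5G15180. With the replicate number as a block in a fit of these groups, 14 were called, 6 higher with 3.73% of all genes and 8 lower with 2.95%, the lower ones including AT1G14550, Prx37 (AT4G08770), AT4G11290 and AT5G64120 but not AT4G16270.

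Relative to the wild type, AT5G15180 (8.43, 8.90 and 8.81 there) and PER4 (7.55, 8.76 and 8.25 there) were below every wild-type array in gl2. By limma these differences were -2.19 ± 0.55 (adjusted p = 0.0807) and -2.81 ± 0.90 (adjusted p = 0.457), so neither was called.

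Among the lines with defects in hair growth, csld3, which lacks a cellulose synthase-like protein of the hair tip, was the only one with several peroxidases called. At 2-fold and 5% FDR 5 were lower than in the wild type, where 2.02% of all genes were lower. AT4G26010 measured 8.98, 8.83 and 10.10 in csld3 and was 5.61-fold lower (-2.49 ± 0.49, adjusted p = 0.00197). RHS18 measured 6.99, 7.17 and 7.77 and was 7.59-fold lower (-2.92 ± 0.69, adjusted p = 0.0119). For AT1G34510 (7.71, 7.28 and 8.29) the difference was -2.55 (adjusted p = 0.033). These 3 genes lay below the wild type on every csld3 array and were the ones called with the array label form as a factor (1.81% of all genes called).

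AT3G49960 in csld3 (8.96, 8.70 and 10.97) was also below the wild type on every array and differed by -2.13 (adjusted p = 0.0448). AT2G37130 overlapped with the wild type (-1.11, adjusted p = 0.04). AT1G30870 (9.44, 9.87 and 10.70; -1.34, adjusted p = 0.0647) and RHS19 (10.01, 9.70 and 10.51; -1.20, adjusted p = 0.161) were below the wild type on every array without being called. For each of the hair peroxidases replicate 3 was the highest csld3 array. The count of 5 depended on single arrays, being 1 and 3 without replicates 1 and 2 of csld3, 3, 2 and 1 without replicates 1, 2 and 3 of the wild type, and 1 in a fit of these groups alone.

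In mrh3 no peroxidase passed by limma, although 2% of all genes did. At an unadjusted p under 0.05 there were 7, beside 3809 of all 21440 genes. RHS18 (-1.77, adjusted p = 0.157), AT3G49960 (-1.61, 0.162) and AT4G26010 (-1.09, 0.232) were lower there without overlap. In rhd2, which lacks the NADPH oxidase RBOHC of hair tips, none passed, where 0.00933% of all genes were called. Its peroxidases at an unadjusted p under 0.05 numbered 5, beside 879 of all genes. All 6 hair peroxidases lay below every wild-type array in rhd2, from AT1G30870 (-0.59) to RHS18 (-1.39), each with an adjusted p of 1. The same was true of all 6 in cobl9, so this was not particular to rhd2. The share of all genes below the wild type in this way was not counted.

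Of the other 11 lines against the wild type, 1 peroxidase was called in 1 line. AT2G39040 was lower in ttg (-1.57 ± 0.34, adjusted p = 0.00606), where 0.644% of all genes were lower, and it was not called with the array label form as a factor (-1.34, adjusted p = 0.0924), without replicate 3 of ttg or without replicate 3 of the wild type (highest adjusted p = 0.125). In the other 10 lines limma called none of the 49. The share of all genes called was 0.154% in gl3 egl3, 0.0187% in wer myb23 and mrh1, and 0.028% in lrx1. It was 0.00933% in myc1 and cobl9, and 0.00466% in bhlh66, cow1, ire and mrh2. At an unadjusted p under 0.05 by limma, gl3 egl3 had 4 peroxidases beside 1169 of all 21440 genes. In wer myb23 there were 2 beside 1252, in lrx1 7 beside 1738 and in mrh1 3 beside 2048. In myc1 there was 1 beside 3560, in cobl9 5 beside 1407 and in bhlh66 1 beside 2929. The remaining counts were 2 beside 1974 in cow1, 1 beside 959 in ire and 5 beside 916 in mrh2. By its own test the study reports lower AT1G34510 and RHS18 in csld3, mrh3, rhd2, cobl9, lrx1 and ire. Of these lines, limma called them here in csld3 alone. RHS18 lay below every wild-type array in cobl9 (8.81, 8.99 and 7.39) and lrx1 (7.89, 9.595 and 8.62). AT1G34510 did so in cobl9 (8.97, 8.77 and 8.75) but not in lrx1. In ire both genes overlapped with the wild type. Why the tests differ was not tested.

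The mrh2 arrays were far apart for the hair peroxidases. RHS19 gave 7.62, 10.63 and 11.32 in mrh2, and AT1G34510 gave 6.04, 8.58 and 10.36. Replicate 1 lay below every wild-type array for both genes, and replicate 3 lay within the wild-type range.

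**Figure D4:**
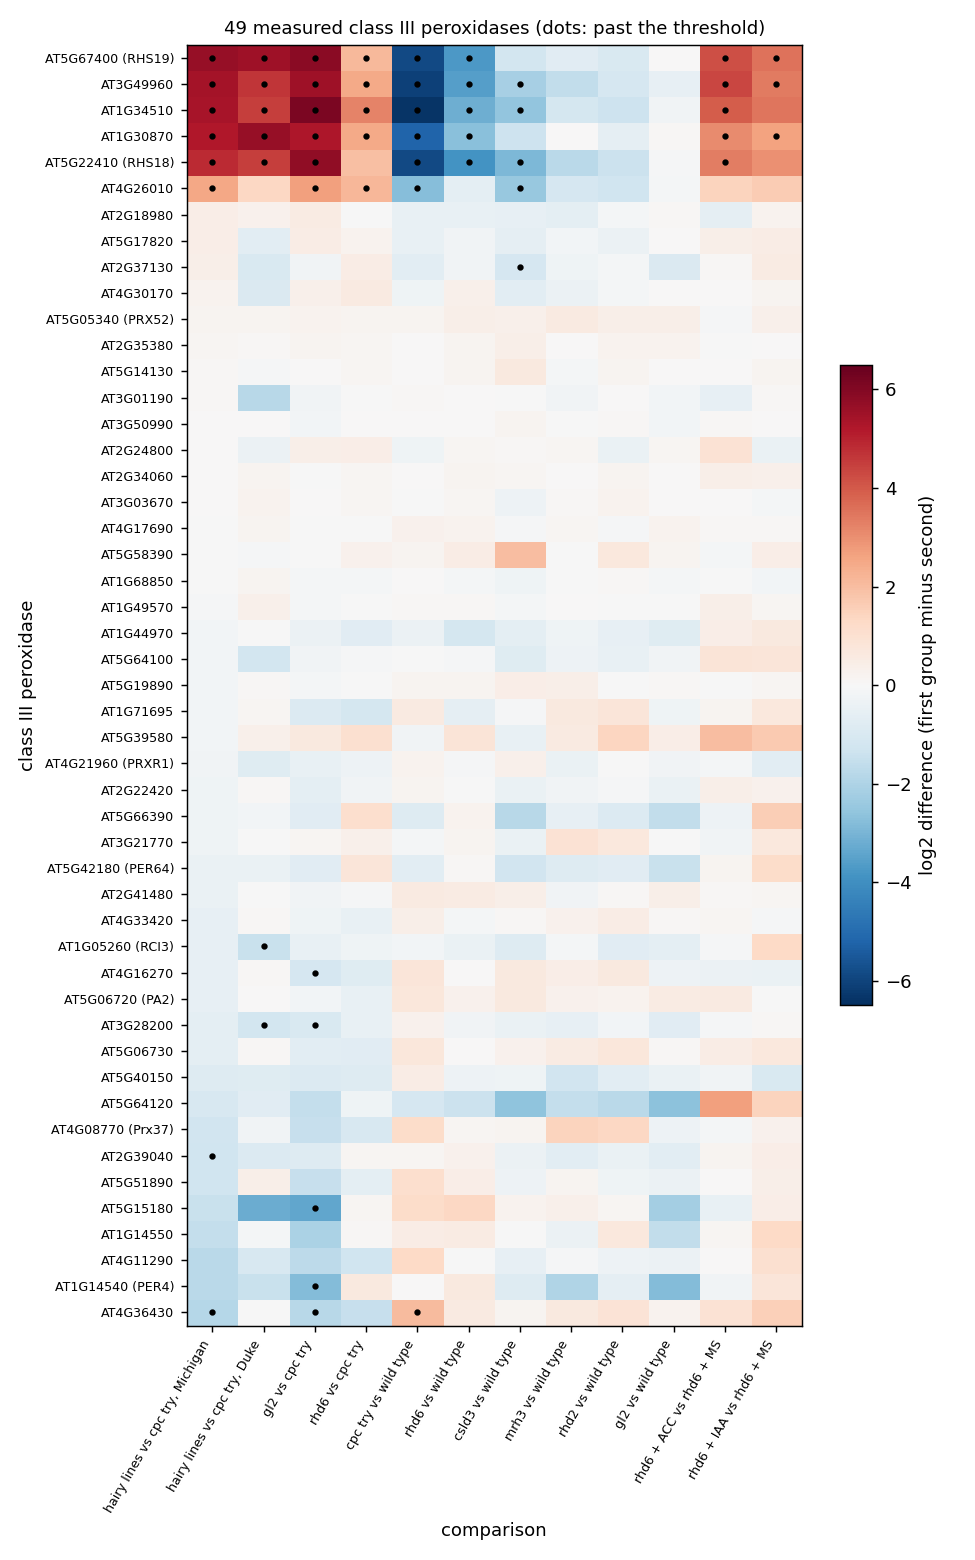
Log2 difference of each of 49 class III peroxidases (vertical axis) in 12 comparisons (horizontal axis), with colour for the difference of the first group minus the second and dots for those past the threshold of that comparison. The upper 6 genes hold most of the dots, while AT4G36430, PER4 and AT5G15180 at the foot are lower in gl2 than in cpc try.

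The hormone treatments compared arrays of a single genotype, rhd6, and share the MS arrays. RHS19 measured 10.23, 10.67 and 10.12 on ACC, 10.89, 9.41 and 8.61 on IAA, and 4.98, 7.13 and 6.28 on MS. AT3G49960 measured 10.66, 10.90 and 10.90 on ACC, 11.06, 9.96 and 8.56 on IAA, and 5.61, 7.81 and 6.10 on MS. AT1G34510 measured 9.30, 9.66 and 9.34 on ACC, 10.25, 8.81 and 7.80 on IAA, and 4.53, 6.54 and 5.39 on MS. In each of these genes all arrays of both hormones lay above all MS arrays, and the IAA arrays were more spread than the ACC arrays.

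Both hormones also lay above MS for AT1G30870, with 10.10, 10.79 and 10.74 on ACC, 10.48, 9.71 and 10.08 on IAA, and 6.83, 8.29 and 7.28 on MS. RHS18 measured 8.30, 8.56 and 8.16 on ACC, 9.09, 7.72 and 7.10 on IAA, and 4.75, 5.91 and 4.39 on MS. AT4G26010, with the smallest gap, measured 10.74, 11.36 and 11.20 on ACC, 11.52, 10.68 and 11.68 on IAA, and 9.40, 10.25 and 9.33 on MS. None of these 3 overlapped between either hormone and MS.

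On ACC medium 5 peroxidases were higher than on MS at 2-fold and 0.5% FDR, where 0.34% of all genes were higher, and none was lower. By limma AT3G49960 was 19.9-fold higher (adjusted p = 3.27e-05), RHS19 18.5-fold (5.23e-06), AT1G34510 15.4-fold (0.000526), RHS18 9.996-fold (0.00464) and AT1G30870 8.45-fold (3.09e-05). AT4G26010 was 1.44 higher on the log2 scale (adjusted p = 0.278). Without replicate 2 of ACC, or replicate 1 or 3 of MS, 3 peroxidases were called, AT1G34510 (highest adjusted p = 0.0182) and RHS18 (0.0722) being lost. The RHS18 call was also lost without replicate 1 or 3 of ACC, while AT3G49960, RHS19 and AT1G30870 stayed called whichever array was left out.

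On IAA medium 3 were higher, where 0.135% of all genes were higher, with RHS19 11.4-fold (adjusted p = 0.000544), AT3G49960 10.2-fold (0.00332) and AT1G30870 6.17-fold (0.00141). AT1G34510 (3.47, adjusted p = 0.00693), RHS18 (2.95, 0.0207) and AT4G26010 (1.63, 0.0546) did not pass the same threshold. A fit of these groups alone called 0 members and 0 of all genes, and leaving out replicate 1 of IAA, or replicate 1 or 3 of MS, also left 0.

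**Figure D5:**
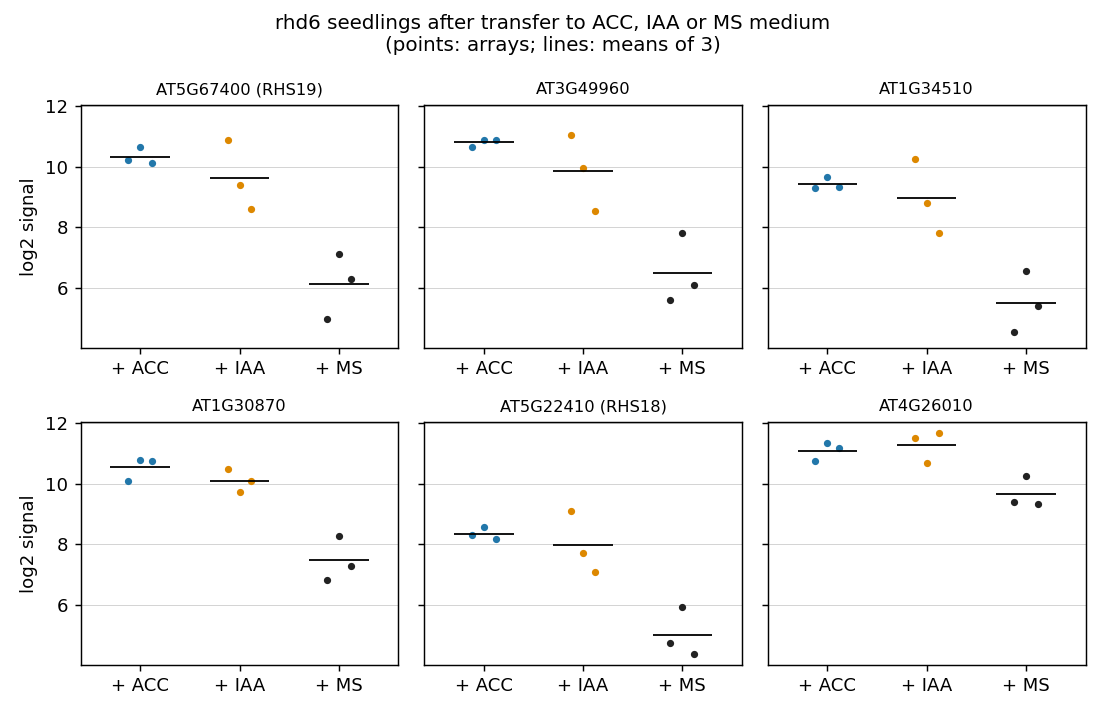
Log2 signal of 6 class III peroxidases (panels) in rhd6 seedlings after transfer to ACC, IAA or MS medium (horizontal axis), with points for arrays and lines for means of 3. In every panel the lowest ACC and IAA arrays lie above the highest MS array.

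Between the hormones, the 5 hair peroxidases RHS19, AT3G49960, AT1G34510, AT1G30870 and RHS18 were 0.37 to 0.96 higher on ACC than on IAA with overlapping arrays (adjusted p = 0.992 for each), which does not show that the hormones act alike. AT2G24800 was the only peroxidase called, where 0.014% of all genes were higher on ACC. It gave 4.72, 5.64 and 5.42 on ACC, against 4.08, 3.53 and 4.02 on IAA (1.38 ± 0.22, adjusted p = 0.000882). These are low signals, on MS AT2G24800 gave 4.09, 4.12 and 4.78, and the call was lost without replicate 2 or 3 of either hormone (highest adjusted p = 0.0602). Outside the calls, AT5G64120 (PRX71, a lignification peroxidase) gave 8.64, 8.54 and 8.33 on ACC, against 5.77, 6.18 and 5.51 on MS (2.69, adjusted p = 0.308).

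The 5 hair peroxidases resembled each other over all 21 Michigan group means. Pearson's r over the 10 pairs of RHS19, AT3G49960, AT1G34510, AT1G30870 and RHS18 lay between 0.951 and 0.986, with a median of 0.961, as a description over groups that share arrays, scaling and the same hairless extremes. Among all 49, the member most like RHS19 was AT1G30870 (0.986), and the one most like RHS18 was AT3G49960 (0.97). Chromosomal neighbours gave mixed values. AT1G14540 (PER4) and the adjacent AT1G14550 had r = 0.871, the adjacent AT5G06720 (PA2) and AT5G06730 had r = 0.213 at low signals (means of 3.45 and 3.75), and AT5G64100 and AT5G64120, with 1 gene between them, had r = 0.698.

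Peroxidases with known roles outside hair formation are described by group. The 6 with roles in lignification, among them PER64 (AT5G42180) of the Casparian strip, PRX52 (AT5G05340) and PRX71 (AT5G64120), had wild-type means from 3.36 to 8.90 and spans over groups of 0.76 to 3.20. The tapetum members AT1G44970 and AT4G16270 had means of 4.91 and 4.77 in the wild type. AT3G50990 (PER36), which acts in mucilage release from the seed coat, had a mean of 3.44 and a span of 0.62. AT5G39580 (PRX62) and AT5G64100 (PRX69), implicated in root hair growth in the cold, had wild-type means of 8.43 and 11.86, and neither passed the test in any comparison above.

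Extensins, wall proteins that peroxidases cross-link, were taken as a related list. Of 11 measured, 8 rose and 1 fell in the hairy lines relative to cpc try at Michigan (list median 3.83). Of all genes 4.41% rose and 2.75% fell there. The rises were led by EXT17 (5.84 ± 0.45, adjusted p = 4.37e-14 by limma) and EXT13 (5.58 ± 0.48, adjusted p = 1.27e-12). At Duke 2 were higher, beside 1.66% of all genes, and the list median was 1.74. They were EXT13 (4.43 ± 0.53, adjusted p = 0.000834) and EXT11 (2.41 ± 0.39, adjusted p = 0.00471). In rhd6 8 were lower than in the wild type (list median -3.09), beside 1.43% of all genes. On ACC 4 were higher than on MS (2.76), beside 0.34% of all genes, and on IAA 2 (2.51), beside 0.135%.

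NADPH oxidases, which make the superoxide that becomes the substrate hydrogen peroxide, were the other related list. Of 10 measured, RBOHE (2.40 ± 0.40, adjusted p = 1.57e-05), RBOHG (2.28 ± 0.42, 6.78e-05) and RBOHI (1.66 ± 0.43, 0.00553) rose in the hairy lines relative to cpc try at Michigan by limma, with a list median of 0.50. Of all genes 4.41% rose there. At Duke none passed, the smallest adjusted p being that of RBOHB (-1.44 ± 0.29, 0.0135), and the list median was 0.03. RBOHC, the oxidase of hair tips, was not called at either facility.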

How the data were processed

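Root epidermis cells were measured on 75 Affymetrix ATH1 arrays. The authors summarised custom probe sets, 1 for each gene, by RMA with quantile normalization and deposited the log2 signals. The version of RMA and the annotation build are not given in the sources used here. How the normalization was divided between the facilities is not stated. Quantile normalization gives arrays like distributions, so a change shared by most genes would not show. No further scaling was applied. Removing 64 control probe sets left 21440 genes. No measured peroxidase had values identical to another gene's, and depth does not apply to arrays.

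In R 4.3.3 with limma 3.58.1, 1 mean per group was fitted to all arrays of a facility (lmFit), with moderation of the spread (eBayes) and Benjamini-Hochberg adjustment over all genes. The facility difference was fitted over the 24 arrays of the 4 lines measured at both. The thresholds were 1% FDR for the hairy lines against cpc try and for the facility difference, 2-fold and 5% FDR for lines against wild type and gl2 against cpc try, 2-fold and 2% for rhd6 against cpc try, and 2-fold and 0.5% for hormones. The study's own test was SAM, which was not run here. The fits were tested on simulated data.

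Replicate numbers come from the sample titles. Over 28 pairs of groups, correlations of same-numbered deviations ran from -0.672 to 0.55, and all were over 0.1 in 5 pairs. Among them were rhd6 with wild type (0.472 to 0.55) and gl2 with cpc try (0.111 to 0.409), where the numbers were taken to pair the arrays. The others were cow1 with wild type (0.205 to 0.532), lrx1 with wild type (0.112 to 0.232) and Duke wer myb23 with Duke cpc try (0.199 to 0.429). For these no blocked fit of only the groups compared was made, so the results given for them leave such pairing out.

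Alternatives were a filter on the dimmest 25% of genes, quantile normalization of the arrays fitted, a median shift, the block by replicate number, a fit limited to the groups compared, the array label form as a factor, an intensity trend with robust moderation, and leaving out each array. Those without gl3 egl3, the block in a fit of 2 groups and the comparisons of single hairy lines were chosen after seeing the data. The members, gene lists and the rule for named genes were chosen with earlier results of these data known. By that rule any listed peroxidase may be named, with values per array for those called at both facilities, and other genes only from the fixed marker and pathway lists. Gene names came from the TAIR10.1 annotation.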

Additional observations from a re-analysis of the deposited data

Results flagged for a closer look

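AT4G36430 was the only peroxidase for which the contrast of hairy lines and cpc try passed a test of the difference between facilities, in 1 fit over both (Michigan minus Duke -1.82 ± 0.37 SE, adjusted p = 0.0097, limma, where 0.527% of all genes passed in this direction). Its signals were 6.78, 5.15 and 6.74 in the Michigan cpc try arrays, and 4.15, 3.94 and 4.03 in those of Duke. The low ends of the arrays differ, with 5th percentiles of 2.80 to 3.01 at Michigan and 3.83 to 4.01 at Duke. The Duke signals thus lay near the low end, where signals carry little information on decreases. The facility and any other difference between these cultures cannot be told apart. Leaving out a single array ended the call for 22 of 24 arrays, all but replicate 2 of Michigan cpc try and replicate 2 of Michigan gl3 egl3 (highest adjusted p = 0.0499). With the replicate number as a block, quantile normalization, a median shift or dim genes left out no peroxidase passed this test.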

How the results depend on the processing

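Of 106 counts of called peroxidases under alternatives other than leaving out single arrays, 87 stayed within 1.5 times the value given and 19 moved. Of 503 values of single peroxidases under the same alternatives, 460 kept their side of the threshold, 41 no longer passed and 2 newly passed. None that passed in either fit changed sign. Changes of sign among values that passed in neither fit were not counted. The replicate block over all arrays kept every count within 1.5 times (9 at Michigan and 7 at Duke for the hairy lines, 5 for rhd6 against wild type, 12 for gl2 against cpc try), except that it ended the facility difference of AT4G36430, whose count was 0. In a fit of only the groups compared, the block gave 8 for rhd6 against wild type and 14 for gl2 against cpc try. The fit of only the groups compared without a block gave 2 for gl2 against wild type, 1 each for csld3 and mrh3, 0 for rhd6 against cpc try, 0 for IAA against MS, 0 for ACC against IAA and 4 over the other 11 lines. The array label form as a factor gave 3 for csld3, 1 for rhd6 against cpc try, 7 for gl2 against cpc try and 0 over the other 11 lines. The median shift gave 3 for csld3, 0 for ACC against IAA and 0 for the facility difference, the filter on dim genes gave 0 for both of the last 2, and quantile normalization gave 0 for the facility difference. The causes were not tested.

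Leaving out 1 array gave counts of 6 to 9 for the hairy lines at Michigan, 6 to 12 at Duke, 6 to 7 for cpc try against wild type, 4 to 5 for rhd6 against wild type, 1 to 4 for rhd6 against cpc try, 7 to 11 for gl2 against cpc try, 0 to 1 for gl2 against wild type, 1 to 7 for csld3, 3 to 5 for ACC, 0 to 4 for IAA, 0 to 1 for ACC against IAA, 0 to 1 for the facility difference and 0 to 1 over the other 11 lines. For most of these counts, and those of the other fits above, the share of all genes called in the same fit is not set beside them. That share can move too. At Duke it was 3.27% higher and 3.67% lower without replicate 2 of wer myb23, beside 1.66% and 1.8% with all arrays. The counts therefore do not show changes particular to the peroxidases. Signals near the low end of the arrays, as those of AT4G36430 and AT2G24800, carry little information on decreases.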
